A study of Mus musculus with 10 samples.

Results

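The keratins that epidermis switches on after injury were followed through the first days of subcutaneous islet grafts in diabetic nude mice. Of 18193 genes measured, 10 keratin genes were described: the wound-activated Krt6a, Krt6b, Krt16 and Krt17, the resting epidermal Krt5, Krt14, Krt1 and Krt10, and Krt8 and Krt18 of simple epithelium. They were chosen by name and class, with earlier results of these data known, so counts set beside the share of all genes are descriptions. All 10 were on the array, by 17 probe sets that carry a single gene symbol. PSI-F grafts held rat islets and cultured mouse skin fibroblasts in a plasma-based scaffold, and PSI grafts held rat islets in the same scaffold without fibroblasts. The recipients were male Swiss nu/nu mice, 6 weeks old and made diabetic with streptozotocin, and grafts were taken on days 1, 3, 7 and 10. Diabetic was a subcutaneous biopsy of a non-transplanted mouse of that kind, 7 to 10 days after streptozotocin, and Control a subcutaneous biopsy of a healthy, non-transplanted mouse. All the mice were immunodeficient nude mice, whose hair coat is defective, and rat transcripts are seen only as far as they bind the mouse probes.

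Expression was read on 10 Affymetrix mouse arrays, 1 for each kind of graft and day and 1 for each biopsy. The study killed 2 mice of each kind on each day and hybridized the RNA of best quality, and the sources do not say if both mice contributed to an array. A level is a log2 value per probe set, and each gene is given by the probe set that was brightest on average, so that a difference of 1 stands for 2-fold and 2 for 4-fold, the threshold of the study's methods. Array medians lay between 2.82 and 2.94, and a value close to them is near background. Levels of different probe sets cannot be ranked against each other, so genes are compared by their differences between arrays. The tissue held skin and muscle beside the graft bed: the median level of 18 suprabasal and cornified layer genes lay between 7.46 and 9.01 over the 10 arrays, and that of 8 skeletal muscle genes between 11.21 and 12.25. In such bulk tissue, fewer cells of a type and less RNA per cell cannot be told apart.

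Keratins are the intermediate filament proteins of epithelial cells, and each filament pairs a type II keratin with a type I keratin. Basal keratinocytes make Krt5 with Krt14, and cells leaving the basal layer replace them with Krt1 and Krt10. Keratinocytes at a wound edge, and those of some hair follicle layers at rest, make Krt6a and Krt6b with Krt16 and Krt17, while Krt8 and Krt18 form the filaments of simple epithelia such as pancreatic ducts and acini. The type II genes lie together on chromosome 15 and nearly all type I genes on chromosome 11. In the RefSeq annotation of GRCm38.p6, Krt6b, Krt6a and Krt5 were direct protein-coding neighbours on chromosome 15, Krt14, Krt16 and Krt17 were direct neighbours on chromosome 11, and Krt18, the type I exception, lay on chromosome 15 beside its partner Krt8.

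RefSeq promoter windows of GRCm38.p6 were found for 5 of the 10 genes: Krt5, Krt14, Krt10, Krt8 and Krt18. None was found for the activated keratins, so the motif search did not cover them. The 250 bases before the annotated start are given for 3 genes. Krt10 is shown as the keratin with the smallest range over the 10 arrays, and Krt8 with Krt18 as the neighbouring pair whose members were higher in PSI-F on at least 3 of the 4 days. Capitals mark the matches to 3 motifs searched on both strands: the TATA box with the letters TATAAA, the AP-1 site written TGANTCA, and the CK-8mer, named for its occurrence in keratin promoters and written AANCCAAA. No match overlapped another.
Krt10, chr11:99389365-99389614, minus strand: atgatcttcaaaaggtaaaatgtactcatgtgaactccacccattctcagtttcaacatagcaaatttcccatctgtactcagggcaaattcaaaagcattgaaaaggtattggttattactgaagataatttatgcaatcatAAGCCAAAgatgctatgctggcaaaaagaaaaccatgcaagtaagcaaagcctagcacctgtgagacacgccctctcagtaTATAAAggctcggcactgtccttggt
Krt8, chr15:102004343-102004592, minus strand: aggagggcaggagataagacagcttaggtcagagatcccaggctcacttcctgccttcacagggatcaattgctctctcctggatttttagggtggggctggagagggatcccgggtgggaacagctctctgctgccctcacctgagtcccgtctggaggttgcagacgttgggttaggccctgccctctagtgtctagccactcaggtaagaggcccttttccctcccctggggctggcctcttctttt
Krt18, chr15:102027966-102028215, plus strand: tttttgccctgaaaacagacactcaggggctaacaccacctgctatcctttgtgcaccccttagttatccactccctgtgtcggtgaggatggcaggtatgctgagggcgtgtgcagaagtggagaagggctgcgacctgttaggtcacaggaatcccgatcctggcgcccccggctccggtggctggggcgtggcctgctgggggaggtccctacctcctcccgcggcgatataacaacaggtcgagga
The Krt10 window held a TATA box whose first base lay 26 bases before the start, and a CK-8mer match that began 107 bases before it. The windows of Krt8 and Krt18 held no match to these letters. Of 32851 windows of this length in the table, 12.4% held the TATA box, 6.75% the AP-1 site and 4.98% the CK-8mer, so a match is a description of the sequence only.

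**Figure D1:**
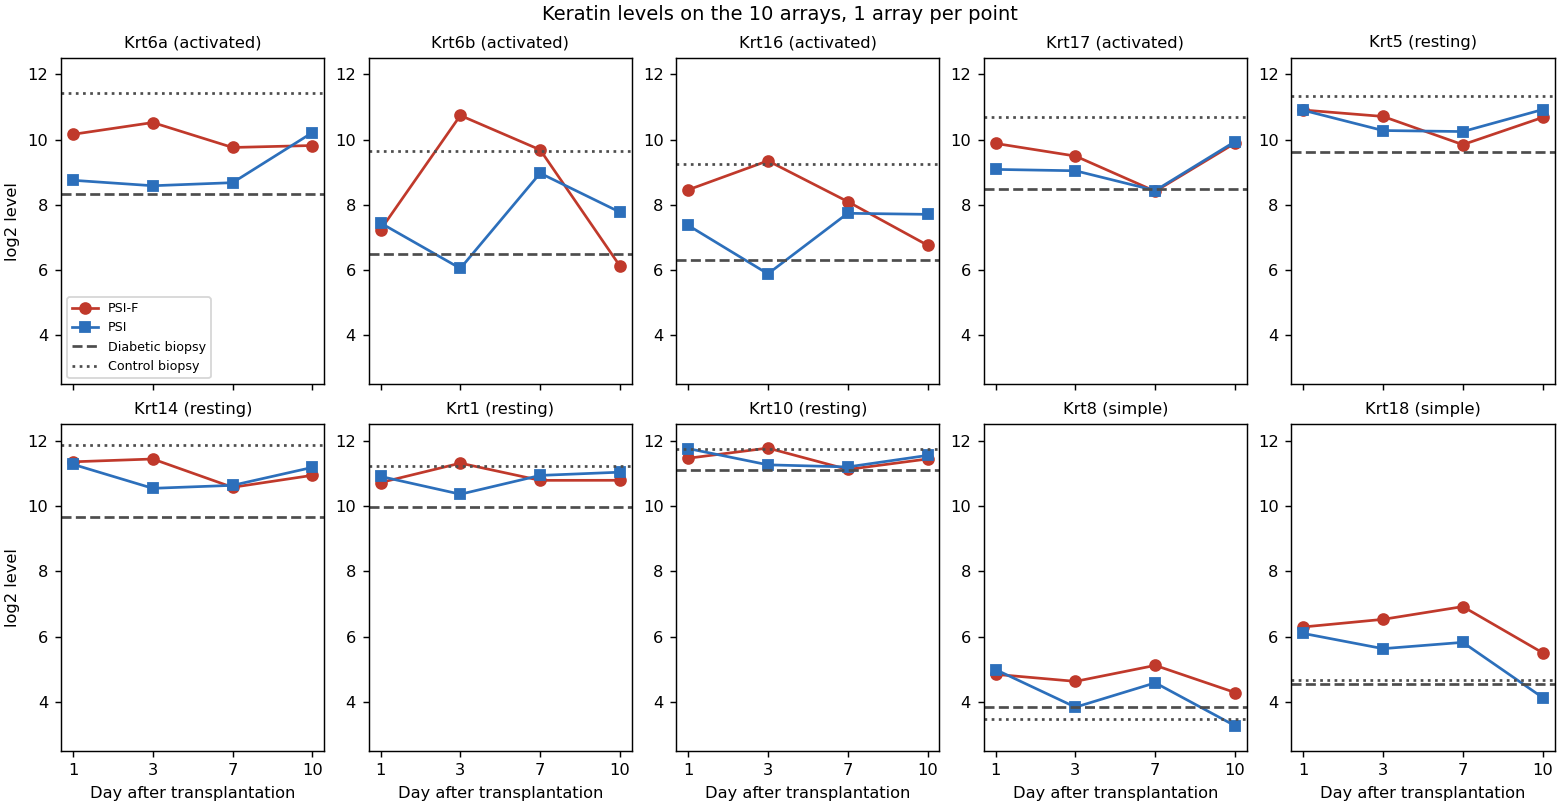
Log2 level (vertical axis) of each of the 10 keratins by day after transplantation (horizontal axis) in PSI-F (red circles) and PSI (blue squares), with the Diabetic (dashed) and Control (dotted) biopsies as horizontal lines; each point is 1 array, so there is no error bar. Krt6b in PSI-F stood at 10.74 on day 3 and at 6.13 on day 10, while Krt10 stayed between 11.10 and 11.77 on all arrays.

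The wound-activated keratins differed most between the kinds of graft on day 3, when Krt6b was 25.8-fold and Krt16 11.0-fold higher in PSI-F than in PSI. This comparison asks which genes differ when fibroblasts are added to the scaffold. On that day 2 of the 10 keratins passed 4-fold with a higher level in PSI-F, against 0.159% of all genes, and none was 4-fold lower, against 0.566%. On days 1, 7 and 10 none of the 10 passed 4-fold in either direction, where 0.187%, 0.335% and 0.115% of all genes did. At 2-fold in either direction the counts were 2, 3, 2 and 3 of the 10 on days 1, 3, 7 and 10, beside 1.13%, 2.86%, 1.78% and 0.731% of all genes. On days 1 and 3 these were activated keratins higher in PSI-F, and on day 7 Krt6a and the simple Krt18 were higher. On day 10 the simple Krt8 and Krt18 were higher and the activated Krt6b was lower. With 1 array for each kind of graft and day, these differences have no replicate check and no p-value.

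Krt6b, a type II keratin of wound-edge keratinocytes, had the widest range of the 10 genes over the grafts. Its levels on days 1, 3, 7 and 10 were 7.24, 10.74, 9.69 and 6.13 in PSI-F, against 7.45, 6.05, 8.97 and 7.78 in PSI, with 6.51 in Diabetic and 9.64 in Control. PSI-F was thus above Control on days 3 and 7 and below Diabetic on day 10, whereas PSI was at its lowest on day 3 and at its highest on day 7. The PSI-F minus PSI difference was -0.21, 4.69, 0.72 and -1.65 on the 4 days.

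Krt16, the type I keratin induced with Krt6 in wounds, ran close to Krt6b. Its levels on days 1, 3, 7 and 10 were 8.46, 9.35, 8.10 and 6.77 in PSI-F, against 7.37, 5.89, 7.74 and 7.71 in PSI, with 6.31 in Diabetic and 9.25 in Control. The difference was 1.09, 3.46, 0.36 and -0.94. For Krt16 as for Krt6b, PSI-F of day 3 was the highest and PSI of day 3 the lowest of the 10 arrays. Krt16 was lower in PSI-F on day 10 only.

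Krt6a, the other wound-induced type II keratin, was higher in PSI-F on days 1, 3 and 7. It stood at 10.16, 10.52, 9.76 and 9.82 in PSI-F, against 8.76, 8.59, 8.68 and 10.22 in PSI, with 8.34 in Diabetic and 11.43 in Control. On days 1, 3 and 7 the PSI-F levels lay above every PSI level of those days, and day 10 of PSI was above 3 of the 4 PSI-F levels. The difference was 1.41, 1.94, 1.08 and -0.40, or 2.65-fold, 3.83-fold and 2.11-fold higher on the first 3 days. The other Krt6a probe sets gave 2.17 and 1.86 on day 3, so that 1 of the 3 passed 4-fold. Krt6a and Krt6b are near-identical genes, and the share of each signal that comes from the other was not tested.

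Krt17, a type I keratin of hair follicle and wounded epidermis, moved least of the 4. Levels were 9.88, 9.50, 8.42 and 9.89 in PSI-F, against 9.09, 9.05, 8.44 and 9.94 in PSI, with 8.49 in Diabetic and 10.70 in Control. Both kinds of graft were lowest on day 7, at about the level of Diabetic, and the difference was 0.80 and 0.45 on days 1 and 3 and -0.02 and -0.05 on days 7 and 10. A second Krt17 probe set lay between 1.99 and 4.37, near background, and 1 further probe set that also carries the Krt14 symbol was not used.

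**Figure D2:**
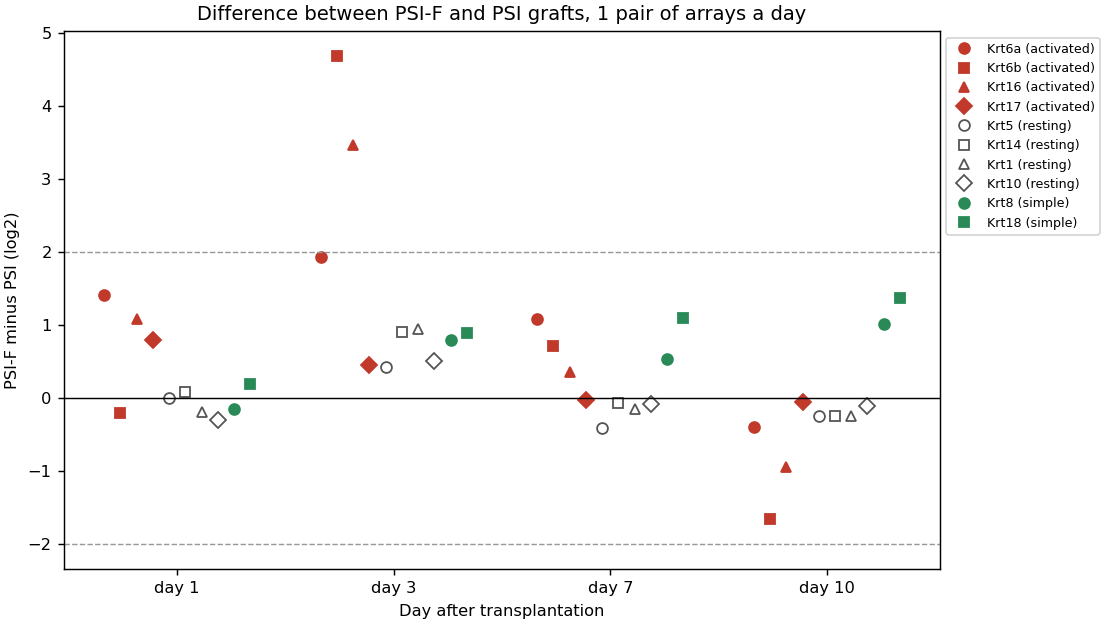
PSI-F minus PSI difference (log2, vertical axis) of the 10 keratins on each day (horizontal axis), 1 pair of arrays a day; filled red symbols are activated, open grey symbols resting and filled green symbols simple keratins, and dashed lines mark 4-fold. Krt6b at 4.69 and Krt16 at 3.46 on day 3 are the points above the upper line, and the resting keratins lie between -0.40 and 0.95 on all 4 days.

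The resting keratins were close between the kinds of graft on days 1, 7 and 10 and somewhat higher in PSI-F on day 3. By the brightest probe sets none of the 4 reached 2-fold on any day. Krt5, the basal type II keratin, was at 10.91, 10.71, 9.85 and 10.68 in PSI-F, against 10.90, 10.28, 10.25 and 10.92 in PSI, with 9.64 in Diabetic and 11.33 in Control. Its day 3 difference was 0.43, against 1.94 for its neighbour Krt6a. Krt14, its basal partner, was at 11.35, 11.44, 10.57 and 10.94 in PSI-F, against 11.28, 10.54, 10.63 and 11.18 in PSI, with 9.66 in Diabetic and 11.87 in Control. The day 3 difference of Krt14 was 0.90, and 1.14 and 0.35 by its other probe sets.

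Among the suprabasal keratins, Krt1, the type II keratin of differentiating cells, was at 10.72, 11.31, 10.79 and 10.79 in PSI-F, against 10.91, 10.36, 10.94 and 11.04 in PSI, with 9.97 in Diabetic and 11.23 in Control. Krt10, its partner, was at 11.46, 11.77, 11.12 and 11.44 in PSI-F, against 11.76, 11.26, 11.20 and 11.55 in PSI, with 11.10 in Diabetic and 11.76 in Control. Both were slightly lower in PSI-F on days 1, 7 and 10, with differences of -0.30 to -0.08, and higher on day 3, by 0.95 for Krt1 and 0.51 for Krt10.

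Averaged over the 4 genes of each class, the PSI-F minus PSI difference was 0.77, 2.63, 0.53 and -0.76 for activated and -0.10, 0.70, -0.17 and -0.21 for resting keratins on days 1, 3, 7 and 10. The activated mean therefore exceeded the resting mean by 0.87, 1.94 and 0.70 on days 1, 3 and 7 and was 0.55 below it on day 10 (a difference of -0.55). The SD over the 4 genes was 0.70, 1.84, 0.47 and 0.70 for activated keratins, against 0.17, 0.26, 0.16 and 0.07 for resting keratins, so the classes overlapped on days 1, 3 and 10. On day 7 the lowest activated value, -0.02 for Krt17, was above the highest resting value, -0.06 for Krt14. All-gene medians of the same differences lay between -0.06 and 0.0059. Genes of a class share each array, so these spreads are not replicate errors.

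Over all 4 days, with the day as a block, limma called none of 45037 probe sets between PSI-F and PSI (0.0%), and so none of the 10 keratins. Without adjustment 2749 probe sets had p under 0.05, among them Krt18, Krt6a and Krt8. Krt6a was 1.01 ± 0.32 higher in PSI-F (SE, n = 4 days, higher on 3 of 4), with an adjusted p of 0.751 by limma. Krt16 and Krt6b had differences of similar size, 0.99 ± 0.58 and 0.89 ± 0.85, with larger errors. Without day 3 Krt6b was -0.38 and Krt16 0.17. The resting keratins differed by -0.05 ± 0.15 (Krt5), 0.17 ± 0.18 (Krt14), 0.09 ± 0.20 (Krt1) and 0.01 ± 0.14 (Krt10), all SE. Days stand in for replicates here, so a difference that changes with the day enters the error.

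The simple keratins took another course. By their brightest probe sets, the differences between the kinds of graft were smallest on day 1 and largest on day 10. Krt18 was at 6.29, 6.53, 6.92 and 5.50 in PSI-F on days 1, 3, 7 and 10, against 6.09, 5.63, 5.82 and 4.13 in PSI, with 4.54 in Diabetic and 4.67 in Control. PSI-F was above PSI on all 4 days, by 0.20, 0.90, 1.10 and 1.37, and PSI of day 10 was the lowest of the 10 arrays. By limma the difference over the days was 0.89 ± 0.18 (SE, n = 4 days, higher on 4 of 4), with an adjusted p of 0.751. Among the 10 keratins Krt18 had the smallest unadjusted p.

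Krt8, the type II partner of Krt18, was nearer to background. It stood at 4.84, 4.63, 5.11 and 4.28 in PSI-F, against 4.99, 3.83, 4.58 and 3.26 in PSI, with 3.83 in Diabetic and 3.47 in Control. PSI-F was higher on days 3, 7 and 10, by 0.79, 0.53 and 1.02, and lower by 0.14 on day 1 (a difference of -0.14). Another of its probe sets gave 0.25, 0.84, 0.13 and 0.56 on days 1, 3, 7 and 10. By that probe set the difference was largest on day 3 and did not reach 2-fold on day 10. The limma difference was 0.55 ± 0.18 (SE, n = 4 days), with an adjusted p of 0.751.

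On day 10, when both simple keratins differed most by their brightest probe sets, Ins2 differed as well. Ins2 is an insulin gene whose signal here marks the islet graft. Ins2 was at 10.59, 8.67, 9.95 and 9.40 in PSI-F, against 10.60, 8.95, 10.16 and 7.70 in PSI, with 3.13 in Diabetic and 2.27 in Control, so the day 10 difference was 1.70 and the earlier ones between -0.28 and -0.01. Over the 9 islet genes the day 10 median difference was 0.04, and 1 was at least 2-fold higher in PSI-F. The median level of the 9 that day was 1.96 in PSI-F and 1.84 in PSI, below the array medians, which limits that median difference. Over 7 exocrine and ductal pancreas genes the day 10 median difference was 0.03. Median levels of these 7 were 2.35 to 2.96 on the 10 arrays, near background. The part of graft epithelium in the Krt8 and Krt18 differences was not tested. Of 8 other simple and mucosal keratins, Krt7 and Krt19, both of ducts, were at 3.81 and 3.48 in PSI-F on day 10, against 2.84 and 2.58 in PSI, which lie near or below the array medians (2.82 to 2.94), so the size of their differences is uncertain. The median day 10 difference of the 8 was 0.04.

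Against the Diabetic biopsy, the baseline of the study's methods, all keratins that passed 4-fold were higher in the grafts. In PSI-F these were 1, 3, 2 and 0 of the 10 on days 1, 3, 7 and 10, where 2.16%, 2.95%, 2.17% and 1.1% of all genes were at least 4-fold higher. PSI had 0, 0, 1 and 0 of the 10, where 2.0%, 2.0%, 2.19% and 1.3% of all genes were. The ones that passed in PSI-F were Krt16 on day 1 (2.15), Krt6a, Krt6b and Krt16 on day 3 (2.19, 4.24 and 3.04), and Krt6b and Krt18 on day 7 (3.18 and 2.38). In PSI it was Krt6b on day 7, with 2.47. These counts use the brightest probe sets. By its other probe sets the resting Krt14 passed in PSI-F of day 3 (2.13 and 2.08). By 1 of these it also passed on day 1 (2.23 in PSI-F and 2.53 in PSI) and day 10 (2.33 and 2.40). Krt6a passed in PSI-F of day 1 by another probe set (2.04). At 2-fold, 7, 8, 5 and 4 of the 10 were higher than Diabetic in PSI-F, beside 7.35%, 9.9%, 7.19% and 6.5% of all genes, and 5, 1, 3 and 7 in PSI, beside 7.77%, 8.17%, 8.51% and 6.48%. All 16 comparisons of graft and biopsy use the same biopsy arrays, so those of 1 biopsy are not independent. Those with grafts of days 7 and 10 also set apart arrays that differ in spike-in control signal, as given below.

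Krt6b and Krt16 of PSI on day 3 were slightly below Diabetic, by differences of -0.45 and -0.43, so that the day 3 gap between the kinds of graft lay mainly on the PSI-F side of that baseline. Against Control it lay mainly on the PSI side. There Krt6b was at -3.58 in PSI and 1.10 in PSI-F, and Krt16 at -3.36 and 0.11. The activated mean over Diabetic was 1.53, 2.62, 1.58 and 0.74 in PSI-F and 0.76, -0.02, 1.05 and 1.50 in PSI on the 4 days. The resting mean was 1.02, 1.22, 0.49 and 0.87 in PSI-F and 1.12, 0.52, 0.66 and 1.08 in PSI. Activated keratins thus exceeded resting ones by 0.51, 1.40 and 1.09 in PSI-F on days 1, 3 and 7, with -0.13 on day 10, while PSI had -0.36, -0.54, 0.39 and 0.42.

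The Diabetic biopsy was itself low in epidermal keratins. Diabetic was at least 4-fold lower than Control in 5 of the 10 keratins, where 0.824% of all genes were: Krt6b (-3.13), Krt6a (-3.09), Krt16 (-2.93), Krt17 (-2.22) and Krt14 (-2.21). Krt5, Krt1 and Krt10 were lower by less, with differences of -1.69, -1.26 and -0.66, whereas Krt8 and Krt18 differed by 0.36 and -0.13. The activated mean was -2.84 and the resting mean -1.46, a gap of -1.39 between arrays without any graft. Diabetic was lower for all 9 basal layer genes (median -0.92), for 15 of 18 suprabasal and cornified layer genes (median -0.56) and for 17 of 21 wound-activated genes other than keratins (median -1.09), beside a median of 0.0 over all genes. All 8 skeletal muscle genes were higher in Diabetic than in Control (median 0.64), and their part in the keratin differences was not tested.

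The choice of biopsy therefore set the direction. Against Control the activated mean was -1.32, -0.23, -1.26 and -2.10 in PSI-F and -2.09, -2.86, -1.79 and -1.34 in PSI on days 1, 3, 7 and 10, all below 0. Past 4-fold from Control in either direction were 1, 0, 2 and 2 of the 10 keratins in PSI-F, beside 2.81%, 3.12%, 3.3% and 0.484% of all genes, and 2, 3, 2 and 0 in PSI, beside 2.39%, 1.71%, 2.55% and 0.55%. Only Krt18 in PSI-F of day 7 was higher than Control by 4-fold, at 2.25. Activated minus resting was -0.88, 0.013, -0.30 and -1.52 in PSI-F and -1.75, -1.92, -1.0 and -0.97 in PSI. PSI-F on day 3 remained the graft with the highest value against either biopsy, and PSI on day 3 the lowest, since the same baseline is taken from every graft. Krt6a and Krt17 were below Control in all 8 grafts, and Krt6a was above Diabetic in all 8.

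**Figure D3:**
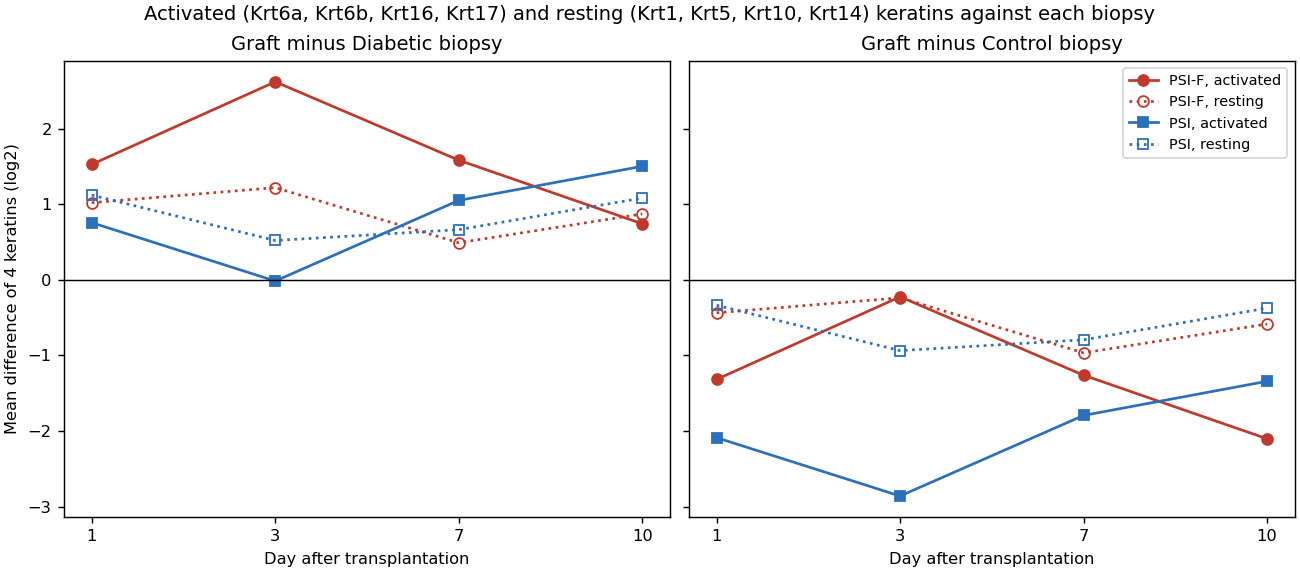
Mean log2 difference (vertical axis) of the 4 activated keratins (filled symbols, solid lines) and of the 4 resting keratins (open symbols, dotted lines) in PSI-F (red) and PSI (blue) grafts from the Diabetic biopsy (left) and the Control biopsy (right), by day after transplantation; each point is 1 graft array against 1 biopsy array. The activated mean of PSI-F on day 3 is 2.62 above Diabetic and 0.23 below Control.

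Across all 8 grafts and both biopsies, limma called 975 of 45037 probe sets (2.16%), 671 higher and 304 lower in the grafts, and none of the 10 keratins. Krt18 was 1.26 ± 0.54 higher in grafts (SE, 8 grafts and 2 biopsies), with an adjusted p of 0.249, and Krt8 0.79 ± 0.41 higher, with an adjusted p of 0.351. With only the grafts of days 1 and 3, Krt18 was 1.53 higher with an adjusted p of 0.0320 by limma, in a fit that called 886 of 45037 probe sets (1.97%). Without PSI of day 10, the array lowest in Krt18, it was 1.51 higher with an adjusted p of 0.0495 by limma. That fit called 884 probe sets (1.96%). Leaving out any other single graft called none of the 10 keratins. The activated keratins had estimates between -0.32 and -0.07 with errors of 0.55 to 1.18. For Krt6a, Krt16 and Krt17 the 2 biopsies lay on either side of most grafts. For Krt6b 6 of the 8 grafts were above Diabetic and 2 were above Control. The direction of Krt14 turned with the biopsy used: without Control it was 1.34 higher in grafts (adjusted p = 0.0360 by limma, where 4371 probe sets, 9.71%, were called), and without Diabetic its difference was -0.88 (adjusted p = 0.330 by limma, with 15 probe sets called). The fits without Control or without Diabetic set 8 grafts against 1 biopsy, which is assumed to vary like the grafts. In every fit of this paragraph grafts of different days and kinds stand in for replicates. Where both biopsies were used, they came from mice of unlike condition.

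Between days 7 and 10 and days 1 and 3 of the grafts, 189 of 45037 probe sets (0.42%) were called, 19 higher and 170 lower, and none of the 10 keratins, none of which had an unadjusted p under 0.05 by limma. Krt18 had the largest estimate, -0.54 ± 0.41 (SE), and Krt6b the largest error, 0.27 ± 1.03. Of the 24 probe sets of the poly-A spike-in controls, 12 were brighter on all 4 arrays of days 7 and 10 than on any other array. The other arrays include both biopsies. Time and array processing therefore cannot be told apart in this comparison. Nor can graft and array processing where grafts of days 7 and 10 are set against a biopsy.

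Other genes of wounded keratinocytes moved in part with the activated keratins on day 3. Of 21 such genes other than keratins, 8 passed 2-fold with a higher and 1 with a lower level in PSI-F, and the median was 0.54, beside -0.0014 over all genes; 0.989% of all genes were at least 2-fold higher. Sprr1b, a cornified envelope precursor, was at 8.46 in PSI-F, against 4.84 in PSI, and Mmp9, a matrix metalloproteinase that neutrophils carry as well, at 6.13, against 3.87. Lce3a, a late cornified envelope gene, went the other way on day 3 (-1.70) and was 2.53 higher in PSI-F on day 7. On days 1, 7 and 10 the medians of the 21 were 0.0084, 0.31 and -0.09.

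Neutrophil genes differed on the same day: 4 of 11 passed 2-fold with a higher level in PSI-F, the median was 0.64, and S100a9, a calprotectin subunit that wounded keratinocytes also make, was at 9.69 in PSI-F, against 7.42 in PSI. The median level of the 11 neutrophil genes lay between 2.35 and 3.02 in the grafts, near background. All 8 skeletal muscle genes were lower in PSI-F on day 3 (median -0.63), with a median level of 11.21 in PSI-F, against 11.88 in PSI. Macrophage genes were higher in PSI-F for 8 of 9 on day 3 (median 0.34, with Cd14 at 1.95 and Lyz2 at 1.13), with a median level of 8.60 in PSI-F, against 8.43 in PSI. This was not particular to day 3: 8 of the 9 were also higher on days 1 and 7 (medians 0.38 and 0.32), and 1 on day 10 (median -0.27). Fibroblast genes were higher for 7 of 8 (median 0.27, with Pdgfrb at 1.11), with a median level of 10.43 in PSI-F, against 10.17 in PSI. The part of neutrophils, macrophages, fibroblasts and muscle in the keratin differences was not tested.

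Genes of resting epidermis had smaller median differences on day 3 than the 0.54 of the other wound-activated genes. The median was 0.38 for 9 basal layer genes, of which 6 were higher in PSI-F, so most of these went the same way. It was -0.0049 for 18 suprabasal and cornified layer genes and -0.16 for 12 epithelial adhesion genes. No gene of these lists was 2-fold higher in PSI-F. Krt15, a keratin of basal and bulge cells, and Tgm3, a transglutaminase, passed 2-fold with a lower level, at -1.06 and -1.11. Of 7 genes for the EGF receptor and its ligands, none passed 2-fold in either direction on any day. Among 19 regulators of keratin genes 1 passed 2-fold on day 3: Fos, a subunit of the AP-1 factor, with differences of 0.78, 1.87, -1.10 and -2.11 on days 1, 3, 7 and 10. Its levels were 9.11, 9.53, 7.82 and 8.09 in PSI-F, against 8.33, 7.66, 8.92 and 10.21 in PSI, with 6.78 in Diabetic and 7.92 in Control.

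Keratins of the hair follicle moved opposite to the activated keratins on day 3. Of 12 hair shaft keratins 11 passed 4-fold with a lower level in PSI-F, and of 9 inner root sheath and companion layer keratins 8 did, where 0.566% of all genes did. The medians were -4.37 and -5.87. The exception among the 9 was Krt79, at 0.50, which was also on the list of sebaceous gland genes. Krt28, of the inner root sheath, was at 2.02 in PSI-F, against 9.17 in PSI, and Krt33a, of the hair shaft, at 2.68, against 9.55. Krt16, Krt17 and Krt6a, also made in follicle layers, had day 3 differences of 3.46, 0.45 and 1.94. On day 7 the shaft keratins were higher in PSI-F (median 2.40) and the activated mean was 0.53, and on day 10 the medians of both follicle lists were 0.23 and 0.25 with an activated mean of -0.76. On day 1 the inner root sheath median was -2.57 and the shaft median 0.04. The part of hair follicle state in the activated keratin differences was not tested.

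**Figure D4:**
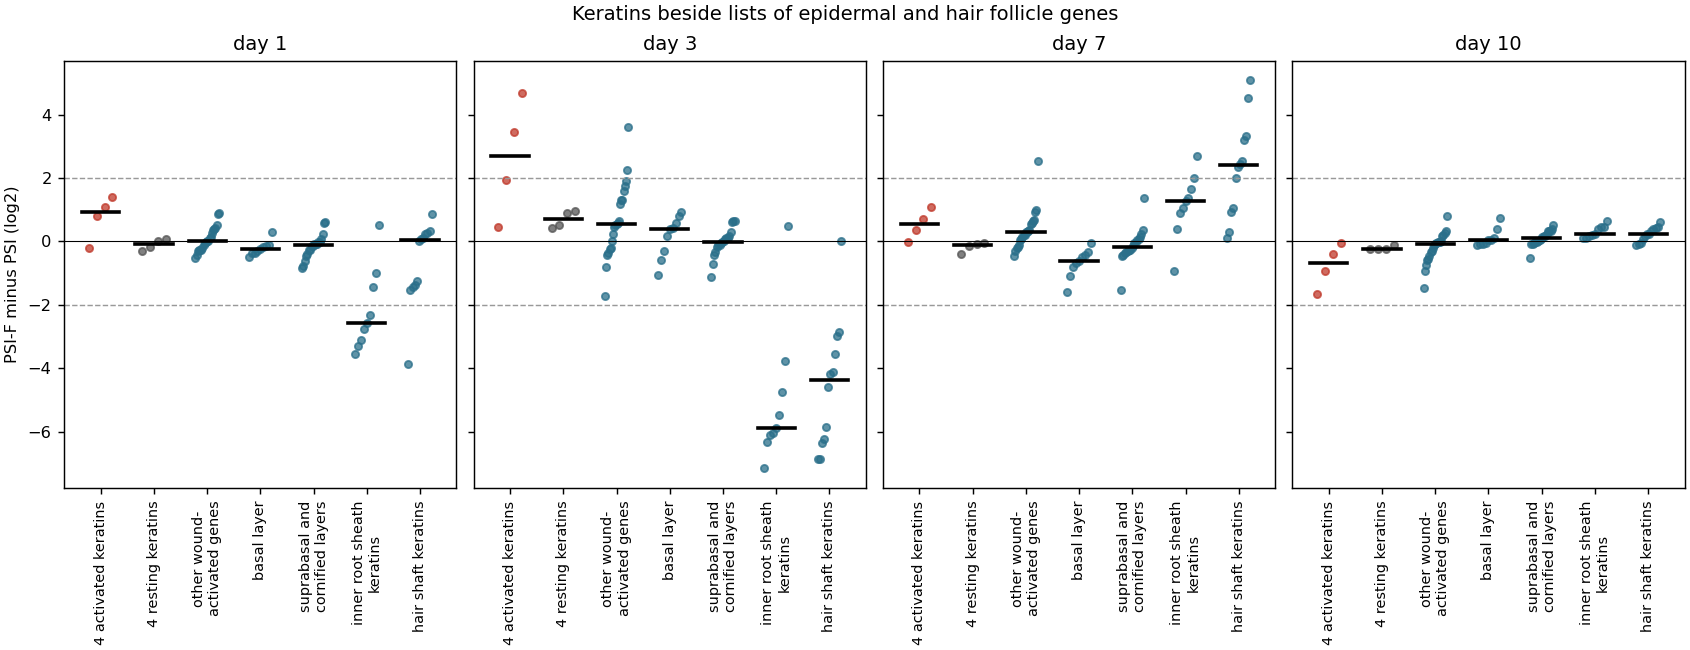
PSI-F minus PSI difference (log2, vertical axis) of each gene in 7 groups (horizontal axis) on days 1, 3, 7 and 10; each point is 1 gene on 1 pair of arrays, black bars are medians, and dashed lines mark 4-fold. On day 3 the activated keratins lie above 0 while the inner root sheath and hair shaft medians are -5.87 and -4.37.

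The genes whose levels ran most like those of Krt6b and of Krt10 were sought among 6689 genes with a level of 6 or more on some array. For Krt6b these were Gas1 (Pearson r = 0.90 over the 10 arrays), Yipf5 (0.87), Krt16 (0.86), Mmp13 (0.86) and Tes (0.85). Mmp13, a collagenase, was at 5.09, 5.54, 5.51 and 2.79 in PSI-F, against 3.42, 2.98, 5.12 and 5.05 in PSI, with 2.49 in Diabetic and 6.29 in Control, so that it shared with Krt6b the high day 3 and low day 10 of PSI-F. For Krt10 they were Tmprss4 (0.94), Lce1i (0.93), Slco3a1 (0.92), Ints5 (0.92) and Abi1 (0.91), of which Lce1i is a late cornified envelope gene. The r values are descriptions over 10 unreplicated arrays that were normalized together, with the best of many genes picked. Krt16 was the only other member of the 10 keratins in either group of 5.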

How the data were processed

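Total RNA of subcutaneous tissue was hybridized to 10 arrays, 1 per condition. The log2 values, 1 per probe set, were deposited by the authors after RMA (background correction, quantile normalization and a summary per probe set), with R 2.15.0 and affy 1.36.0 named in the submitters' processing notes. RMA scales all arrays to 1 distribution and compresses differences of very dim and very bright probe sets, and the number of arrays limits the precision. Of 45101 probe sets, 64 controls were left out. Symbols came from the platform annotation. Where a comparison spanned days, limma 3.58.1 (R 4.3.3) was fitted to 45037 probe sets, with Benjamini-Hochberg adjustment, and a call was made at an adjusted p under 0.05. The procedure was tested on simulated data. Within a day no test was made. The text names all 10 keratins, up to 3 genes of a list with the largest PSI-F minus PSI difference on any day, and the 5 genes most like Krt6b and Krt10. Of 191 genes in 17 lists 175 were matched. The keratins and the lists were chosen with earlier results of these data known. The alternatives were an intensity trend, a filter on dim probe sets (highest level 4 or more), cyclic loess, a gene's mean over its probe sets, other blocks, leaving out arrays or days, a 2-fold threshold, the Control baseline, and the median in place of the mean. Promoter windows came from RefSeq. Tables were computed with pandas 2.3.3 and numpy 2.4.6 under Python 3.11.15, and drawn with matplotlib 3.10.9.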

Additional observations from a re-analysis of the deposited data

Results flagged for a closer look

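Krt6b was the only keratin of the 10 that was at least 2-fold higher in PSI-F on 1 day and at least 2-fold lower on another: the PSI-F minus PSI difference was 4.69 on day 3 and -1.65 on day 10. Each value rests on 1 pair of arrays, and the difference between the days was not tested.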

How the results depend on the processing

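In limma, none of the 10 keratins was called between PSI-F and PSI or between late and early grafts under any alternative. Over the other normalization and summaries, the day 3 gap of activated over resting keratins between PSI-F and PSI lay between 1.95 and 2.03, and that of day 10 between -0.59 and -0.43. With Control as baseline, activated minus resting was -0.88, 0.013, -0.30 and -1.52 in PSI-F and -1.75, -1.92, -1.0 and -0.97 in PSI on days 1, 3, 7 and 10, and Krt6a, Krt5 and Krt14, above Diabetic in all 8 grafts, were below Control in all 8. Of the values past 4-fold against Diabetic, 3 changed direction: Krt16 in PSI-F of day 1 (-0.78), Krt6a in PSI-F of day 3 (-0.90) and Krt6b in PSI of day 7 (-0.67). Past 4-fold against Control were 1, 0, 2 and 2 keratins in PSI-F on days 1, 3, 7 and 10. The shares of all genes were 2.81%, 3.12%, 3.3% and 0.484%. In PSI the counts were 2, 3, 2 and 0, beside 2.39%, 1.71%, 2.55% and 0.55% of all genes. At 2-fold, 2, 2 and 3 keratins differed between PSI-F and PSI on days 1, 7 and 10 (1.13%, 1.78% and 0.731% of all genes). Higher than Diabetic by 2-fold were 7, 8, 5 and 4 keratins in PSI-F on days 1, 3, 7 and 10. The shares of all genes were 7.35%, 9.9%, 7.19% and 6.5%. In PSI the counts were 5, 1, 3 and 7, beside 7.77%, 8.17%, 8.51% and 6.48% of all genes. Averaging the probe sets of a gene, 1 keratin passed 4-fold in PSI of day 1 against Diabetic, late minus early grafts gave 22 calls over all genes in place of 189, with Krt6a at -0.015 and Krt17 at 0.016, and grafts minus biopsies gave 482 in place of 975. Fewer features were tested there. Without the term for the kind of graft, late minus early gave 407 calls. Cyclic loess turned Krt6b in grafts minus biopsies to 0.016, and with grafts of days 1 and 3 only 1 keratin, Krt18, was called among 886 probe sets (1.97%). The causes were not tested.

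Leaving out 1 day gave 0 to 2 calls over all probe sets between PSI-F and PSI (2 without day 1), and moved Krt6b between -0.38 and 1.73, Krt16 between 0.17 and 1.64, Krt5 between -0.21 and 0.066, Krt14 between -0.075 and 0.31, Krt1 between -0.20 and 0.20 and Krt10 between -0.16 and 0.11. Leaving out 1 array gave 1 to 260 calls for late minus early (1 without PSI-F of day 1 or PSI of day 10), with Krt6a between -0.33 and 0.32, Krt6b between -0.28 and 1.25, Krt16 between -0.74 and 0.34, Krt17 between -0.57 and 0.16, Krt1 between -0.11 and 0.24 and Krt8 between -0.48 and 0.048. For grafts minus biopsies it gave 15 calls without Diabetic to 4371 without Control, where the lone biopsy is assumed to vary like the grafts, and 0 to 1 keratin called, with Krt6a between -1.86 and 1.23, Krt6b between -1.63 and 1.50, Krt16 between -1.57 and 1.36, Krt17 between -1.43 and 0.79, Krt5 between -0.77 and 0.93, Krt14 between -0.88 and 1.34, Krt1 between -0.38 and 0.88 and Krt10 between -0.31 and 0.35. The test of PSI-F against PSI pairs the grafts by day, and without the day block it called 0 probe sets and none of the 10 keratins, with 1262 probe sets at an unadjusted p under 0.05. Krt8 and the second Krt17 probe set lie near background, which limits their differences.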
